A study of Mus musculus with 4 samples.

Results

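The genes of IL-12, TNF and other type 1 cytokines are 10 rows of the deposited table, found by their gene names among 56748 genes. They are the cytokine subunits Il12a, Il12b and Il23a, the receptor chains Il12rb1 and Il12rb2, and the cytokines Ifng, Tnf, Il1b, Il18 and Il15. Poly-A RNA was sequenced from the small intestine (SI) of 2 p53+/+ mice (labelled WT) and 2 p53-/- mice, taken 1 day after total body irradiation (TBI) with 12 Gy from a Cs-137 source. Every animal was irradiated, so no unirradiated level is given here. The p53-/- mice, a stock of the Jackson Laboratory, lack p53 in all cells and not in the intestine alone, and the study's methods describe young adult mice matched for age and gender. The question is how these cytokines and receptors compare between the genotypes in the RNA of the SI on the first day.

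IL-12 is a secreted dimer of the p35 chain, encoded by Il12a, and the p40 chain, encoded by Il12b, and p40 also pairs with p19, encoded by Il23a, to form IL-23. Dendritic cells and macrophages make it in response to microbes and damage. It acts on T cells and NK cells through a receptor of the chains encoded by Il12rb1 and Il12rb2, and STAT4 then switches on Ifng, whose product returns to macrophages and epithelium. IL-18 and IL-15 strengthen the same response and come to a large part from epithelial cells.

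Tnf, Il12b, Ifng and Il1b, 4 cytokine genes that are switched on rapidly in activated cells, share a feature just before their start. The 60 bases before the RefSeq start are shown for them and, for comparison, for Il18, with TATAA on the coding strand in capitals where it lies 25 to 35 bases before the start.
Il12b (GRCm38.p6, chr11:44400003-44400062, + strand): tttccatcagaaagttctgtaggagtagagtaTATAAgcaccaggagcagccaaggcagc
Tnf (GRCm38.p6, chr17:35202008-35202067, - strand): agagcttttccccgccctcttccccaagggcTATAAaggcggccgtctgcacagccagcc
Ifng (GRCm38.p6, chr10:118440986-118441045, + strand): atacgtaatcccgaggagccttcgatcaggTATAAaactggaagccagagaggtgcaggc
Il1b (GRCm38.p6, chr2:129371140-129371199, - strand): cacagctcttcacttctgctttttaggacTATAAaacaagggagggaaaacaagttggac
Il18 (GRCm38.p6, chr9:50554640-50554699, + strand): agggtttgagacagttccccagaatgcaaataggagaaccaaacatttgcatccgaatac

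The TATAA began 28 bases before the start of Il12b, 29 before Tnf, 30 before Ifng and 31 before Il1b. It was in 4 of the 8 windows found for 7 of the 10 genes, and in 2.97% of the 32841 promoters in the RefSeq table. Il18, Il12rb2 and both starts of Il12a lacked it at that distance. This window was searched after the counts had been seen. In the full 250 bases, on both strands, the p53 half-site was matched once, in Il12rb2, and is in 7.13% of all promoters. The interferon-gamma activated sequence TTCNNNGAA (GAS) was matched in Il12rb2 and Ifng and is in 7.02%. The kappa B motif, the interferon-stimulated response element (ISRE) and the AP-1 motif TGANTCA, in 7.25%, 2.98% and 6.75% of promoters, had no match in these windows, which says nothing of sites farther away. The letters TATAA at any place and on either strand of the 250 bases are in 22.8% of promoters. In that wider search Il18 had 5 matches, 90 to 199 bases before the start, and Il12rb2 had one at 250 bases. A match is a description of the letters and not of a bound factor.

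**Figure D1:**
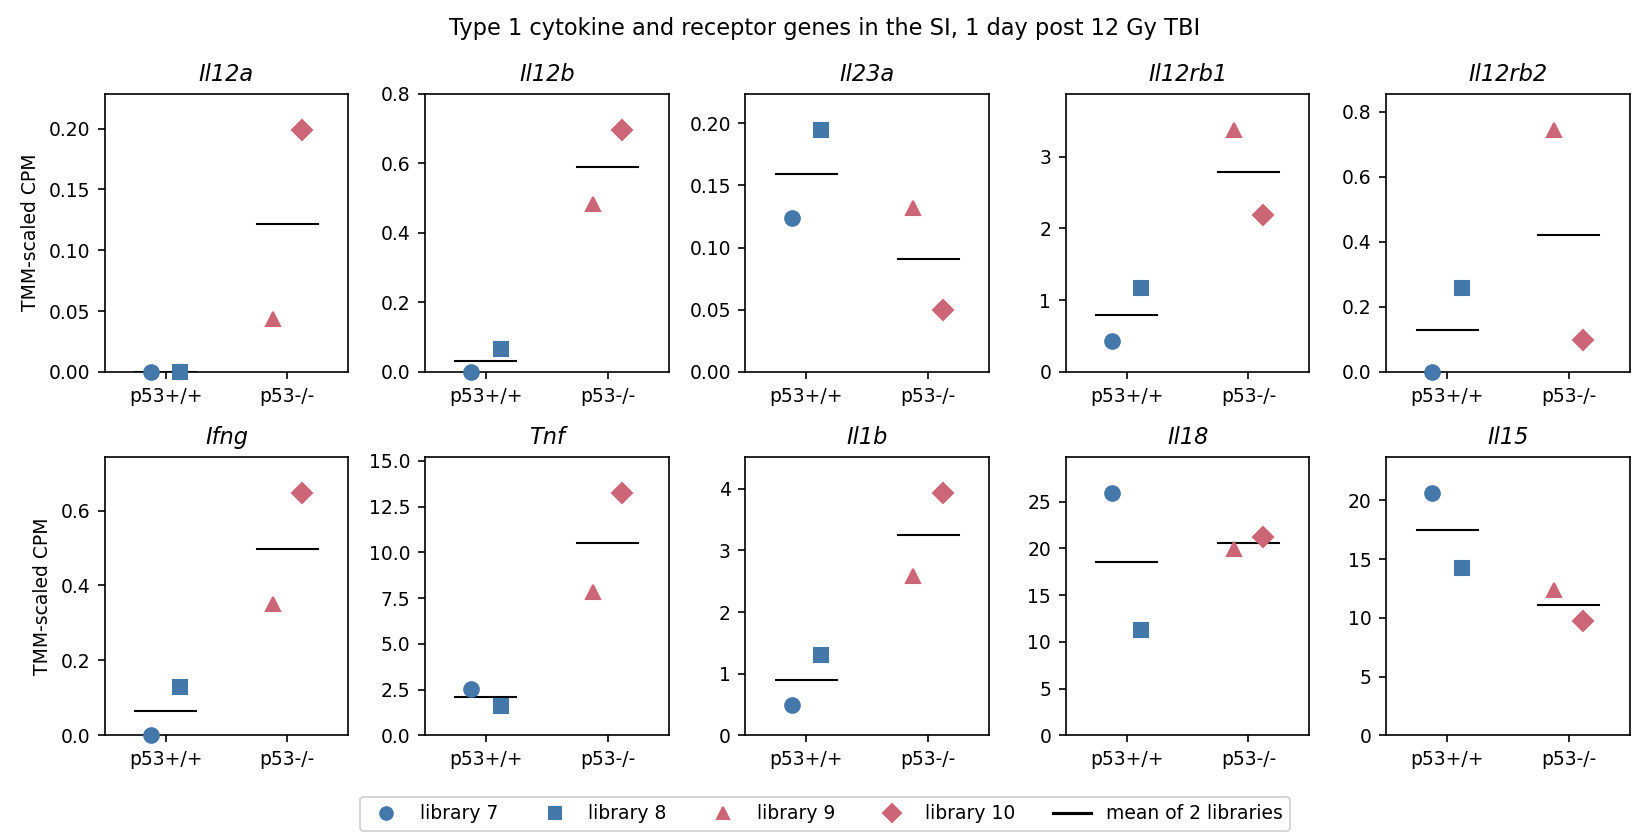
Level of each of the 10 genes in the 4 SI libraries. The y axis is CPM scaled by TMM, each panel with its own range from 0, and the lines are means of 2 libraries. Both p53-/- libraries lie above both p53+/+ libraries for Il12a, Il12b, Il12rb1, Ifng, Tnf and Il1b, and below them for Il15. Il12a, Il12b and Ifng had too few counts for a test, and Il12a had only 0, 0, 1 and 4 counts in libraries 7 to 10.

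The 4 libraries held 15005479 to 22173164 counts. The labels were checked on Trp53 itself, which was at 52.4 ± 7.52 CPM (the counts relative to a library total scaled by TMM) in the p53+/+ SI and 21.2 ± 1.92 in the p53-/- SI (SD, n = 2). Which exons the remaining reads came from is not known from counts per gene, so Trp53 is a limited check, and its target Phlda3, at 89.6 ± 3.26 and 1.74 ± 0.273 CPM, separated the genotypes further. Libraries 7 and 8 are p53+/+ and libraries 9 and 10 are p53-/-. Library 10 stood apart, with 505 CPM summed over 8 B cell genes against 26.1 in library 9. In libraries 7 and 8 this sum was 2.10 and 3.05 CPM, so library 9 also lay above both p53+/+ libraries. The follicle gene Cr2 was at 894 counts in library 10 against 0 to 10 in the others. Library 10 also held 4.59% of its counts on the ribosomal gene Rn18s-rs5 against 0.296% to 0.863% in the others. The fold or ratio of each of the 10 genes that has one, and the median of each pathway list, is therefore also given without library 10. The numbers of the libraries pair no animals, and p-values measure the spread between these samples. Within each genotype the libraries differed beyond counting noise (chi-square over its degrees of freedom 48.0 and 69.5). In bulk tissue, more cells of a type and more RNA per cell cannot be told apart.

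Of the 10 genes, 5 had enough counts to be tested (Tnf, Il1b, Il12rb1, Il18 and Il15), and 0 passed an adjusted p of 0.05 in edgeR's quasi-likelihood test. At this threshold 0.298% of the 16094 genes tested were higher and 0.193% lower in the p53-/- SI. At an unadjusted p under 0.05, 3 of the 5 were higher (Tnf, Il1b and Il12rb1), against 10% of all tested genes, and 0 were lower, against 7.92%. DESeq2 on the same counts called 1 gene higher, Tnf, and 0 lower, against 5.47% and 4.47% of all genes for which it gave an adjusted p. Libraries 9 and 10 were both higher than libraries 7 and 8 for the same 3 of 5 tested genes, against 26.4% of all tested genes. The median log2 fold change of the 5 was 1.79, and that of all tested genes was -0.01. The other 5 genes have too few counts for a test and are given as counts.

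The p40 gene Il12b (ENSMUSG00000004296) had 0 and 1 counts in libraries 7 and 8 (p53+/+) against 11 and 14 in libraries 9 and 10 (p53-/-). The genotypes did not overlap, and both p53-/- animals showed it. In CPM these are 0 and 0.0649 against 0.482 and 0.696. The ratio of the summed counts, scaled by library size, was 18.4, with a 95% exact interval from 3.01 to 755 that covers counting error only. Without library 10 the ratio was 15.2 (2.21 to 655). With 3 counts set in each p53+/+ library, in place of the 0 and 1 observed, the fold was 3.10. Il12b did not pass the filter on low counts, and when that filter was left out edgeR's fit gave a log2 fold change of 3.98 (adjusted p = 0.124), which did not pass the threshold.

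The partner of p40 in IL-12, the p35 gene Il12a (ENSMUSG00000027776), had 0 counts in both p53+/+ libraries and 1 and 4 counts in libraries 9 and 10. The partner in IL-23, the p19 gene Il23a (ENSMUSG00000025383), had 2 and 3 counts in p53+/+ SI against 3 and 1 in p53-/- SI, where the genotypes overlapped. Neither reached 10 counts in a library, so no fold is given. In the p53-/- SI the reads summed over both libraries were 25 for Il12b, 5 for Il12a and 4 for Il23a. Their exons span 1967, 1701 and 2247 bases. Per kilobase of exon, Il12b was at 0.300 ± 0.0770 CPM there (SD, n = 2), and its partners have too few counts for such a value. In each p53-/- library Il12b had more reads, 11 and 14, than either partner, and this order was not tested. In the p53+/+ SI all 3 were at or under 3 counts per library, and their order was not detectable at this depth.

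Of the 2 IL-12 receptor chains, Il12rb1 (ENSMUSG00000000791), which serves IL-12 and IL-23 alike, was at 0.433 and 1.17 CPM in libraries 7 and 8 and at 3.37 and 2.19 CPM in libraries 9 and 10. The genotypes did not overlap, and library 9 was the highest. The log2 fold change was 1.79 (standard error 0.658; adjusted p = 0.248 with edgeR and 0.274 with DESeq2). It was 2.11 without library 10, 1.44 without library 9, 2.66 without library 8 and 1.26 without library 7. The chain specific to IL-12, Il12rb2 (ENSMUSG00000018341), had 0 and 4 counts in p53+/+ SI against 17 and 2 in p53-/- SI. Only library 9 was high, and the genotypes overlapped. The ratio of summed counts was 3.49 (95% exact interval 1.16 to 14.1, counting error only) and 5.88 without library 10 (1.92 to 24.0), and the 2 p53-/- libraries differ from each other by more than the genotypes do. An exon of Il12rb2 overlaps Serbp1 on the opposite strand in GENCODE M21, and the strand setting of the counting is not known.

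Ifng (ENSMUSG00000055170), the cytokine that IL-12 induces in T cells and NK cells, had 0 and 2 counts in p53+/+ SI against 8 and 13 in p53-/- SI. Both p53-/- libraries were above both p53+/+ libraries. The ratio of summed counts was 7.72 (95% exact interval 1.89 to 67.9), 5.53 without library 10 (1.10 to 53.5), and the fold was 2.62 with 3 counts set in each p53+/+ library. With no filter on low counts the log2 fold change was 2.86 (edgeR, adjusted p = 0.372). An exon of Ifng overlaps the gene Gm49751 on the same strand in GENCODE M21, and how reads there were counted is not known.

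Tnf (ENSMUSG00000024401), a cytokine of activated T cells and macrophages that damages epithelium, was the gene with the largest fold among those tested. It had 41 and 25 counts in libraries 7 and 8 and 178 and 266 in libraries 9 and 10, which are 2.54 and 1.62 CPM against 7.80 and 13.2 CPM. The genotypes did not overlap, and library 10 was the highest. The mean was 2.08 ± 0.647 CPM in the p53+/+ SI and 10.5 ± 3.84 CPM in the p53-/- SI (SD, n = 2). The log2 fold change was 2.33 (standard error 0.469, 95% interval 1.16 to 3.51), a 5.04-fold difference. Its adjusted p was 0.106 with edgeR's quasi-likelihood test, which did not pass the threshold, and 0.00107 with DESeq2, which did. Without library 10 the log2 fold change was 1.96 (adjusted p = 0.622 with edgeR), and without library 7 it was 2.70 (adjusted p = 0.0399 with edgeR).

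Il1b (ENSMUSG00000027398), made by macrophages, monocytes and neutrophils, was at 0.495 and 1.30 CPM in libraries 7 and 8 and at 2.59 and 3.93 CPM in libraries 9 and 10. The genotypes did not overlap, and the 2 p53+/+ libraries differed from each other by 1.39 on the log2 scale. The log2 fold change between genotypes was 1.86 (standard error 0.641; adjusted p = 0.230 with edgeR and 0.207 with DESeq2). It was 1.56 without library 10, 2.12 without library 9, 2.69 without library 8 and 1.33 without library 7. An exon of Il1b overlaps its antisense gene Il1bos, and because the strand setting of the counting is not known, reads there cannot be assigned to a strand.

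Il18 (ENSMUSG00000039217) and Il15 (ENSMUSG00000031712) were the most abundant of the 10 genes in the p53+/+ SI. Neither was higher in both p53-/- libraries than in both p53+/+ libraries. Il18, which epithelial cells hold as an inactive precursor, was at 25.9 and 11.2 CPM in libraries 7 and 8 and at 19.9 and 21.2 CPM in libraries 9 and 10. Both p53-/- libraries lay between the p53+/+ libraries. The log2 fold change was 0.14 (95% interval -0.89 to 1.18, edgeR adjusted p = 0.902). Its direction turned without library 8, where it was -0.34, and it was 0.88 without library 7 and 0.16 without library 10. Il18 overlaps Bco2 on the opposite strand.

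Il15, which sustains intraepithelial lymphocytes and NK cells, was at 20.6 and 14.3 CPM in libraries 7 and 8 and at 12.4 and 9.75 CPM in libraries 9 and 10. Both p53-/- libraries lay below both p53+/+ libraries. The log2 fold change was -0.65 (standard error 0.304, 95% interval -1.42 to 0.11; edgeR adjusted p = 0.339), which missed the threshold. It was -0.43 without library 10, -0.84 without library 9, -0.90 without library 8 and -0.36 without library 7. Epithelial markers had a similar direction, with 9 genes summing to 26461 and 19251 CPM in p53+/+ SI against 17181 and 14384 in p53-/- SI. Il15 was at 0.0779% and 0.0741% of that sum in libraries 7 and 8 and at 0.0722% and 0.0678% in libraries 9 and 10. The part of the epithelial share in the Il15 difference was not tested.

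**Figure D2:**
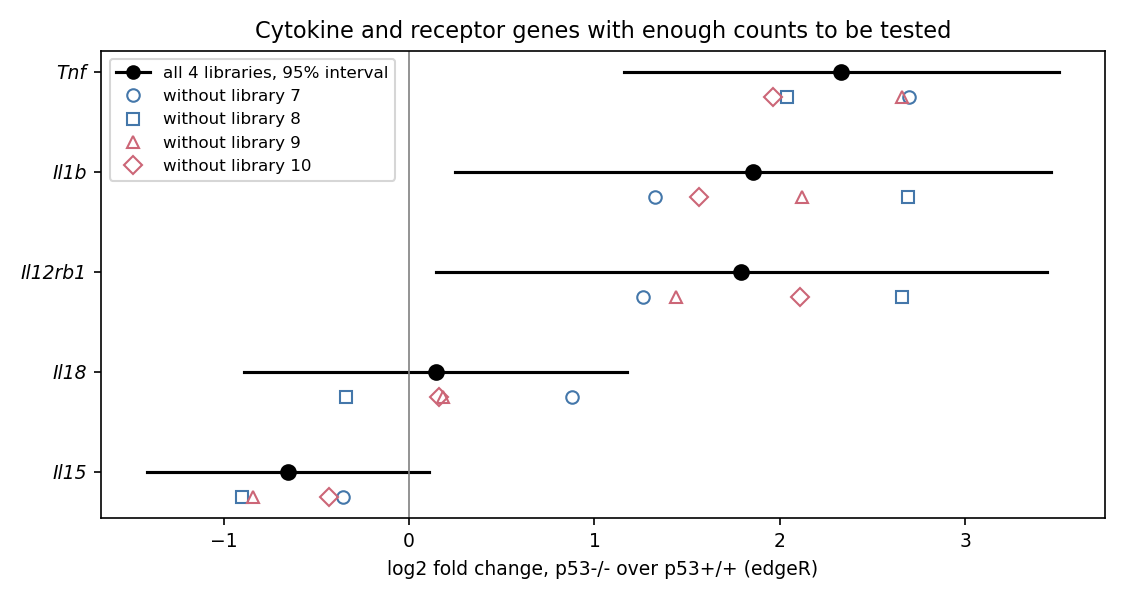
Log2 fold change of the 5 tested genes, p53-/- over p53+/+, from edgeR. Filled points with 95% intervals use all 4 libraries, and open symbols leave out 1 library each. Tnf, Il1b and Il12rb1 are above 0 in every fit, Il15 is below 0 in every fit, and Il18 lies on either side of 0.

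Compared per kilobase of exon, so that genes of different length can be set side by side, Tnf and Il15 stood in a different relation in the 2 genotypes. In the p53+/+ SI, Il18 led with 18.02 ± 10.1 CPM per kilobase, followed by Il15 at 7.71 ± 1.98, Tnf at 1.27 ± 0.395, Il1b at 0.470 ± 0.298 and Il12rb1 at 0.195 ± 0.127 (SD, n = 2). The values of Il1b and Il12rb1 overlapped between libraries, and the other neighbours in this order did not. In the p53-/- SI, Il18 was at 19.9 ± 0.886, Tnf at 6.42 ± 2.34, Il15 at 4.90 ± 0.830, Il1b at 1.71 ± 0.498 and Il12rb1 at 0.678 ± 0.204 CPM per kilobase. There Tnf and Il15 overlapped, so that Tnf stood level with Il15, whereas both Il15 values lay above both Tnf values in the p53+/+ SI. Ifng at 0.385 ± 0.162 and Il12b at 0.300 ± 0.0770 followed and overlapped with each other. Il12rb2 lay below both in each p53-/- library, and Il12a and Il23a are given as counts only.

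Genes of the same pathways, listed from general knowledge, were read from the same fit. Of all 16094 tested genes, 7929 had a positive log2 fold change. At an unadjusted p under 0.05 in edgeR's test, 10% of them were higher and 7.92% lower. Of 8 tested genes of the IL-12 list (its other chains and signalling), 0 passed the threshold, 3 were higher at an unadjusted p under 0.05 and the median log2 fold change was 0.89 (0.63 without library 10). These 3 were Il27ra, the IL-27 receptor, with a log2 fold change of 3.78, Tbx21, which encodes the type 1 factor T-bet, with 3.42, and Stat4, which carries the IL-12 signal, with 2.59 (edgeR adjusted p = 0.184, 0.110 and 0.198). Tbx21 had 2 and 5 counts in p53+/+ SI against 45 and 59 in p53-/- SI. The receptor kinases Jak2 and Tyk2 had log2 fold changes of -0.52 and -0.01. Il27, a cytokine chain, had 0 counts in both p53+/+ libraries but 9 and 11 in p53-/- SI. The fold was 2.48 with 3 counts set in each p53+/+ library.

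In the list of receptors and response genes of interferon gamma, 2 of 12 genes rose in the p53-/- SI past the threshold and 0 fell. Of all tested genes, 0.298% rose and 0.193% fell past it. At an unadjusted p under 0.05, 8 of the 12 were higher and 1 was lower, against 10% and 7.92% of all tested genes. The median log2 fold change was 1.55 (1.60 without library 10). Cxcl9, a chemokine induced by interferon gamma, was at 1.62 ± 0.457 CPM in p53+/+ SI and rose by 3.94 on the log2 scale, to 24.9 ± 1.56 CPM (SD, n = 2; edgeR adjusted p = 0.0279). Ciita, the transactivator of MHC class II genes, rose by 3.85 on the log2 scale (edgeR adjusted p = 0.0410). Neither passed without library 10, but that fit leaves 1 p53-/- library and no gene of the whole table passed in it. Cxcl10, a related chemokine, had a log2 fold change of 2.22 (edgeR adjusted p = 0.119). The receptor chains Ifngr1 and Ifngr2 had values of -0.66 and -0.52 (edgeR adjusted p = 0.171 and 0.305).

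In the TNF list, 0 of 13 tested genes passed the threshold. At an unadjusted p under 0.05, 5 were higher and 1 lower, against 10% and 7.92% of all tested genes. The median log2 fold change was -0.04. That median lay on the other side of 0 under other settings, at 0.05 without library 10 and 0.02 with unscaled library sizes. The lymphocyte cytokine gene Ltb had 21 and 28 counts in p53+/+ SI against 132 and 914 in p53-/- SI (log2 fold change 4.03, edgeR adjusted p = 0.148), and its neighbour Lta had 3, 3, 4 and 83. Both were highest in library 10, where the B cell sum was also highest, at 505 CPM against 26.1 in library 9. In libraries 7 and 8 the B cell sum was 2.10 and 3.05 CPM. Of the 2 TNF receptors, Tnfrsf1b, found mainly on leukocytes, had a log2 fold change of 1.08 and Tnfrsf1a, found on most cells, one of -0.51 (edgeR adjusted p = 0.103 and 0.319). Nfkbia, an inhibitor that TNF induces, had a log2 fold change of 0.65, and Relb, an NF-kappa B subunit, one of -0.70.

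In the list of IL-1 and IL-18 genes, 0 of 15 passed the threshold. At an unadjusted p under 0.05, 3 were higher and 1 lower, against 10% and 7.92% of all tested genes. The median log2 fold change was 0.40 (0.42 without library 10, with 14 genes tested). The largest difference was that of Il18bp, which encodes the secreted inhibitor of IL-18, at 3.28 ± 1.23 CPM in the p53+/+ SI and 28.4 ± 6.42 CPM in the p53-/- SI (SD, n = 2). Its log2 fold change was 3.11 (edgeR adjusted p = 0.0510). The lowest was that of Il1rn, the IL-1 receptor antagonist, with a log2 fold change of -1.27 (edgeR adjusted p = 0.103). The IL-18 receptor genes Il18rap and Il18r1 had 2.20 and -0.32, and the inflammasome sensor gene Nlrp3, at 0 to 12 counts per library, had 1.70.

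All 7 genes of the IL-15 list had a positive log2 fold change, against 7929 of all 16094 tested genes. Their median was 1.07 (1.14 without library 10). At an unadjusted p under 0.05, 4 were higher, against 10% of all tested genes, and 0 passed the threshold. The receptor chains shared by IL-15 and IL-2 were the highest, with a log2 fold change of 3.50 for Il2rg and 2.61 for Il2rb, followed by the kinase gene Jak3 with 1.81 (edgeR adjusted p = 0.148, 0.0707 and 0.134). Stat5b and Stat5a had 0.40 and 0.21. Of 12 other helper and regulatory cytokine genes, 2 could be tested, 0 passed the threshold and 10 had at most 3 counts in both p53+/+ libraries. Il17a, the cytokine of type 17 cells, had 0 counts in both p53+/+ libraries but 17 and 16 in p53-/- SI (edgeR adjusted p = 0.126). The fold was 4.05 with 3 counts set in each p53+/+ library. Tgfb1 had a log2 fold change of 1.62 (edgeR adjusted p = 0.221). Il5 and Il13, of type 2 cells, had 0 counts in all 4 libraries.

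**Figure D3:**
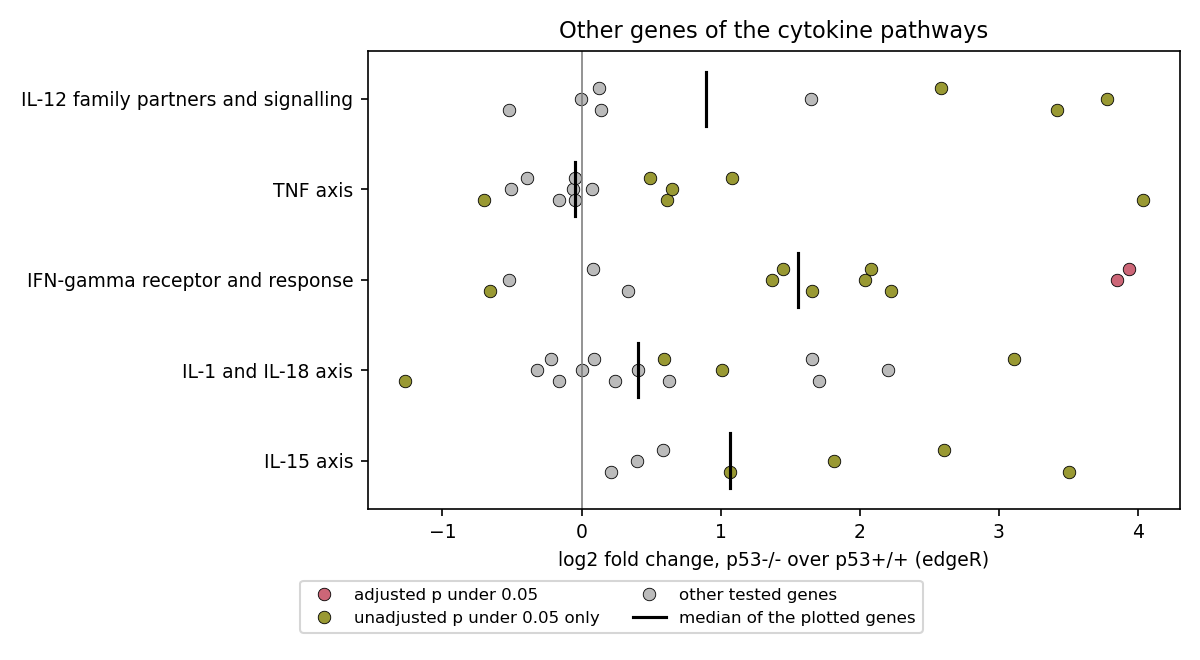
Log2 fold change, p53-/- over p53+/+, of the tested genes in 5 pathway lists, from edgeR. Each point is a gene, coloured by whether its adjusted or only its unadjusted p is under 0.05, and bars are medians. The 2 genes past the threshold, Cxcl9 and Ciita, are in the interferon gamma list, whose median is 1.55, and the TNF list is centred near 0.

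Summed markers of T cells, NK cells, dendritic cells and neutrophils differed between the genotypes without overlap, and those of macrophages overlapped. The B cell sums also separated the genotypes, at 2.10 and 3.05 against 26.1 and 505 CPM. So did the follicle and M cell sums, at 24.2 and 25.6 against 57.2 and 290 CPM, and library 10 was the highest in both. All 10 T cell genes were higher in both p53-/- libraries, and their sum was 7.67 and 14.5 CPM in the p53+/+ libraries and 71.8 and 136 CPM in the p53-/- libraries. The 8 NK cell and ILC1 genes summed to 4.46 and 6.94 CPM against 42.6 and 56.7 CPM, with Ncr1, Klre1 and Eomes at or under 3 counts in both p53+/+ libraries. The 10 dendritic cell genes summed to 89.3 and 95.6 against 196 and 278 CPM, of which Irf8, at 82.6 ± 4.41 and 195 ± 41.1 CPM, made up most. The dendritic cell gene Zbtb46 had 8, 23, 48 and 54 counts in libraries 7 to 10, and Itgax had 29, 147, 432 and 506. The 10 macrophage and monocyte genes summed to 132 and 284 CPM against 277 and 320 CPM, so that library 8 lay above library 9. Of these sums Mertk alone held 86.4 and 140 CPM in libraries 7 and 8 and 91.0 and 58.6 CPM in libraries 9 and 10. Its log2 fold change was -0.59, whereas those of the other 9 genes were positive. Of the 10 genes, 7 were higher in both p53-/- libraries than in both p53+/+ libraries, against 26.4% of all tested genes. The 7 neutrophil genes were low, with sums of 0.557 and 1.23 CPM in libraries 7 and 8 against 4.34 and 3.53 CPM in libraries 9 and 10. Csf3r, at 8, 16, 56 and 41 counts in libraries 7 to 10, made up most of these sums. In the same order S100a9 had 0, 2, 19 and 13 counts, Cxcr2 had 0, 0, 11 and 5 and Retnlg had 0, 1, 3 and 9. S100a8, at 0, 0, 8 and 0 counts, and Ly6g, at 1, 0, 1 and 0, overlapped between the genotypes. Mpo was at or under 3 counts in every library.

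The cytokine levels can also be expressed as a share of these sums. Tnf was at 33.1% and 11.2% of the T cell sum in libraries 7 and 8 and at 10.9% and 9.70% in libraries 9 and 10. Only library 7 stood apart, and library 8, with 25 Tnf counts, lay close to library 9. Against the macrophage sum Tnf was at 1.92% and 0.572% in libraries 7 and 8 and at 2.82% and 4.13% in libraries 9 and 10. Mertk was the highest gene of that sum in libraries 7, 8 and 9 and had a fold change opposite to the rest. No share was computed without Mertk, so no direction is read from the shares of the macrophage sum. Il1b was at 0.375% and 0.458% of the macrophage sum in libraries 7 and 8 and at 0.933% and 1.23% in libraries 9 and 10, with the same limit. Of the neutrophil sum, Il1b made 88.9% and 105% in libraries 7 and 8 and 59.6% and 111% in libraries 9 and 10, which overlapped. Il12b was at 0% and 0.0679% of the dendritic cell sum against 0.246% and 0.250%, from the few counts given above. Irf8 alone held 85.7, 79.5, 166 and 224 CPM of that sum in libraries 7 to 10. No share was computed without Irf8, so no direction is read from the shares of the dendritic cell sum. Ifng overlapped between the genotypes on both scales, at 0% and 0.897% of the T cell sum against 0.488% and 0.474%, and at 0% and 1.87% of the NK cell sum against 0.824% and 1.14%. Il12rb1 was at 5.65% and 8.07% of the T cell sum against 4.70% and 1.60%. Il18 was at 0.0980% and 0.0583% of the epithelial sum against 0.116% and 0.147%. These ratios were chosen after the levels had been seen and were not tested. The part that the numbers of these cells have in the cytokine differences was not tested.

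**Figure D4:**
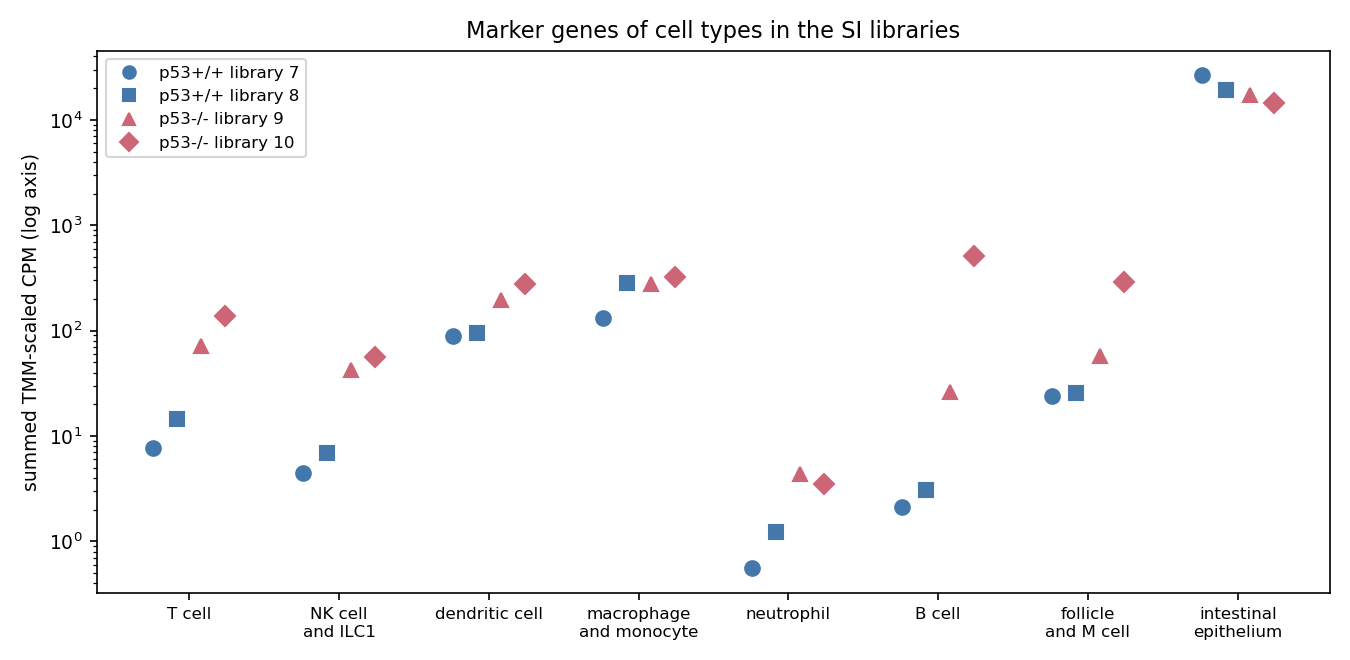
Sum of TMM-scaled CPM over the marker genes of each cell type, 1 symbol per library, on a log axis. The T cell, NK cell, B cell and follicle sums of both p53-/- libraries lie above those of both p53+/+ libraries. Library 10 is highest for B cell and follicle genes. The macrophage sums do not separate the genotypes, and they include Mertk, the only gene of that list with a negative log2 fold change.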

How the data were processed

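Libraries were poly-A selected and sequenced by Novogene. The deposited table holds the authors' counts, whole reads per gene with no normalization, and the submitters' processing notes name fastp, HISAT2 2.0.5, featureCounts 1.5.0-p3 and DESeq2 1.20.0. The genome build, annotation and strand setting are not given in the sources used here. Columns name the genotype but not the labelled replicate.

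Counts were scaled by TMM, filtered by filterByExpr (minimum count 10, total 15) and fitted in edgeR 4.0.16 (R 4.3.3) with the quasi-likelihood test, two-sided, with adjustment over all genes. DESeq2 1.42.0 was an alternative. The fits were tested on simulated data. Standard errors are the log2 fold change divided by the square root of F. Genes under 10 counts in all libraries are given as counts, and where neither library of a genotype passed 3 counts, 3 were set in each for a fold. Exonic lengths came from GENCODE M21 and promoters from RefSeq (GRCm38.p6). The genes and lists were chosen with earlier results of these data known. Named genes are the 10 genes, calls in each list and the list's largest and smallest changes, up to 5, and p53 check genes. The marker gene Fdcsp was not analysed here.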

Additional observations from a re-analysis of the deposited data

How the results depend on the processing

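No paired analysis was possible because the columns of the table do not carry the replicate numbers of the labels. Against 48 higher and 31 lower genes, counts were 26 and 20 by unscaled library sizes, 29 and 20 by upper-quartile factors, 812 and 663 with DESeq2, 1433 and 761 with no filter on low counts, and 24 and 18 with at least 10 counts in every library. With 1 library left out they lay between 0 and 680 higher and between 0 and 344 lower, with 0 and 0 without library 10. Of the 10 cytokine and receptor genes, 0 were called higher, against 1 with DESeq2 (Tnf) and 2 with no filter (Tnf, adjusted p = 4.00e-05, and Il1b, adjusted p = 0.0499, from edgeR), and between 0 and 1 with 1 library left out. Of the pathway genes, 2 were called higher, against 1 each under upper-quartile factors, unscaled library sizes, a minimum of 10 counts in every library and, chosen after seeing the data, without Rn18s-rs5, 18 with DESeq2 and 25 with no filter, and between 0 and 11 with 1 library left out. None was called lower, against 3 with DESeq2, 1 with no filter and between 0 and 1 with 1 library left out. Fewer genes and fewer libraries enter some of these fits, and otherwise the cause was not tested. A genotype left with 1 library is assumed to vary like the other. The direction of Tnf, Il1b, Il12rb1 and Il15 held in every fit that included them, and that of Il18 lay between -0.34 (without library 8) and 0.88 (without library 7). The median log2 fold change of all genes was 0.15 with no filter and within 0.1 of 0 under the other settings. Depth limits Il12a, Il12b, Il23a, Il12rb2 and Ifng to at most 17 counts per library.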
